A study of Mus musculus with 11 samples.

Results

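The MHC class II presentation genes followed here were H2-Aa, H2-Ab1, H2-Eb1, H2-DMa, H2-DMb1, Cd74 and Ciita, in mouse microglia, the resident macrophages of the brain. They were chosen by name, and their probes were found by matching the RefSeq accession of each probe to a gene symbol. All 7 had at least 1 probe that passed the filter on dim probes, out of 19572 genes tested and 23283 symbols matched on the array. RNA of C57BL/6N microglia was hybridised to 11 single-colour arrays in 4 groups, to compare freshly sorted cells with culture and culture with and without cytokines. A_FACS (2 arrays) was sorted from brains of female mice aged 12 to 24 weeks, and NB_FACS (3 arrays) from brains of both sexes at postnatal days 1 to 3, with a gate on intermediate CD45 and high CX3CR1. NB_Control and NB_Stim (3 arrays each) were newborn microglia grown in flasks of 2 to 3 pooled brains with L-929 conditioned medium, shaken off on culture days 18, 26 and 34, and kept 1 day in medium with 10% serum. During that day NB_Stim also received the human cytokines TGF-β1, IL-34 and CX3CL1 (each at 100 ng/mL), and NB_Control received none. Age and sex were not separated in the adult comparisons, and culture and the way of isolation cannot be told apart in the comparisons of cultured with sorted cells.

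MHC class II molecules carry peptides from the endosomal pathway to the cell surface, where CD4 T cells read them. In the mouse the surface molecules are I-A, made of the H2-Aa and H2-Ab1 chains, and I-E, whose β chain is H2-Eb1. Mice of the C57BL/6 background lack a working I-E α chain, so that H2-Eb1 RNA gives no surface I-E. The invariant chain Cd74 fills the groove of new molecules until endosomal proteases degrade it, H2-DM (H2-DMa with H2-DMb1) exchanges the last fragment for peptide, and H2-DO restrains H2-DM. Ciita is the coactivator that class II promoters need. It is recruited by factors on the X and Y boxes of these promoters, and in macrophages it is induced above all by interferon gamma. Resting microglia are known for low class II at their surface.

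The promoter stretches of 3 members and of H2-Ob are shown because all 4 carry the Y box, and all but H2-Aa also the X box core before it. They are the 110 bases before the RefSeq start (GRCm38.p6), with the Y box letters TGATTGG in capitals, the X box core letters ACNNATG in capitals where they were found, and in H2-Aa the letters TGACGTCA of a cyclic AMP element in capitals.
H2-Aa, chr17:34287824-34287933, minus strand: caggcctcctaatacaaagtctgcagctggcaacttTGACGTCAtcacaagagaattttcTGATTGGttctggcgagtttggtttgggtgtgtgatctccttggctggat
H2-Eb1, chr17:34305757-34305866, plus strand: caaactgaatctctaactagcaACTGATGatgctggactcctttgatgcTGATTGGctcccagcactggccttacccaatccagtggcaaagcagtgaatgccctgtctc
H2-DMb1, chr17:34153081-34153190, plus strand: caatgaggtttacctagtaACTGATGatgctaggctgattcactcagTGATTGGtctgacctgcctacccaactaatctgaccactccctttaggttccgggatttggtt
H2-Ob, chr17:34238795-34238904, plus strand: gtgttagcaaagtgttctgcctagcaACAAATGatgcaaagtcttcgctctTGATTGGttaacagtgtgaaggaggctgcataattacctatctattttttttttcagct
The letters searched were chosen after these promoters had been read, and the motifs do not overlap. The windows of the genes named here were searched on the strand of the gene only. In H2-Eb1, H2-DMb1 and H2-Ob 20, 21 and 18 bases lay between the X box core and the Y box. On that strand of H2-Aa only the Y box and the cyclic AMP element were found. Over all 32851 promoter windows of the table, searched on both strands over 250 bases before the start, 7.23% held the Y box letters, 26.7% the X box core letters and 1.55% the cyclic AMP element. Both boxes in this order, 10 to 30 bases apart on 1 strand, were held by 0.134%. The 2 windows of H2-DMa held none of these letters on the strand of the gene, and their other strand was not searched. No window was listed for H2-Ab1, Cd74 or Ciita.

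A pair of probes is shown as well, the 1 probe of H2-Ab1 and 1 of the 2 probes behind the Ciita value. Each is the sequence in the deposited array files, and each can be read through without a stop codon in at least 1 frame.
H2-Ab1 probe, 47 bases: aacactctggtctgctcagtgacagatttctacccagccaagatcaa
Ciita probe, 51 bases: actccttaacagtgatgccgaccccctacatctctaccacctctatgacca
H2-Aa, H2-Ab1, H2-Eb1, H2-DMb1 and Cd74 were each measured by 1 probe, H2-DMa by 2 and Ciita by 5, of which 2 passed the filter.

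Between 66.9% and 80.5% of probes were well above background on an array. Replicate 3 of each newborn group was scanned on slide 2 and the other 8 arrays on slide 1. The microglia marker C1qa was between 16.1 and 17.05 on the log2 scale on every array, while P2ry12 was 12.8 to 14.3 in the sorted groups and 6.10 to 8.30 in culture. Cx3cr1 was used in the gate and is no finding between sorted and cultured cells. The 2 adult arrays stood apart from each other. Of 19572 genes, 186 were higher by more than 2 log2 units in adult replicate 2 than in replicate 1 and 10 were lower. The study's methods define replicates as independent biological ones, and the labels do not say which animals or flasks each array came from. All levels below are quantile-normalised log2 intensities, differences are log2 differences of group means with their SE, and each adjusted p, unless another test is named, comes from limma (moderated, two-sided, adjusted over all genes).

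Over the 4 groups, 4 of the 7 genes differed by limma's F test: H2-Aa (adjusted p 0.00274), Cd74 (0.00299), H2-Ab1 (0.0143) and H2-DMb1 (0.0146). The same test called 48.8% of all genes. The 3 others, H2-Eb1, H2-DMa and Ciita, were not called (adjusted p 0.255, 0.335 and 0.220). Each gene is described below by its role.

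**Figure D1:**
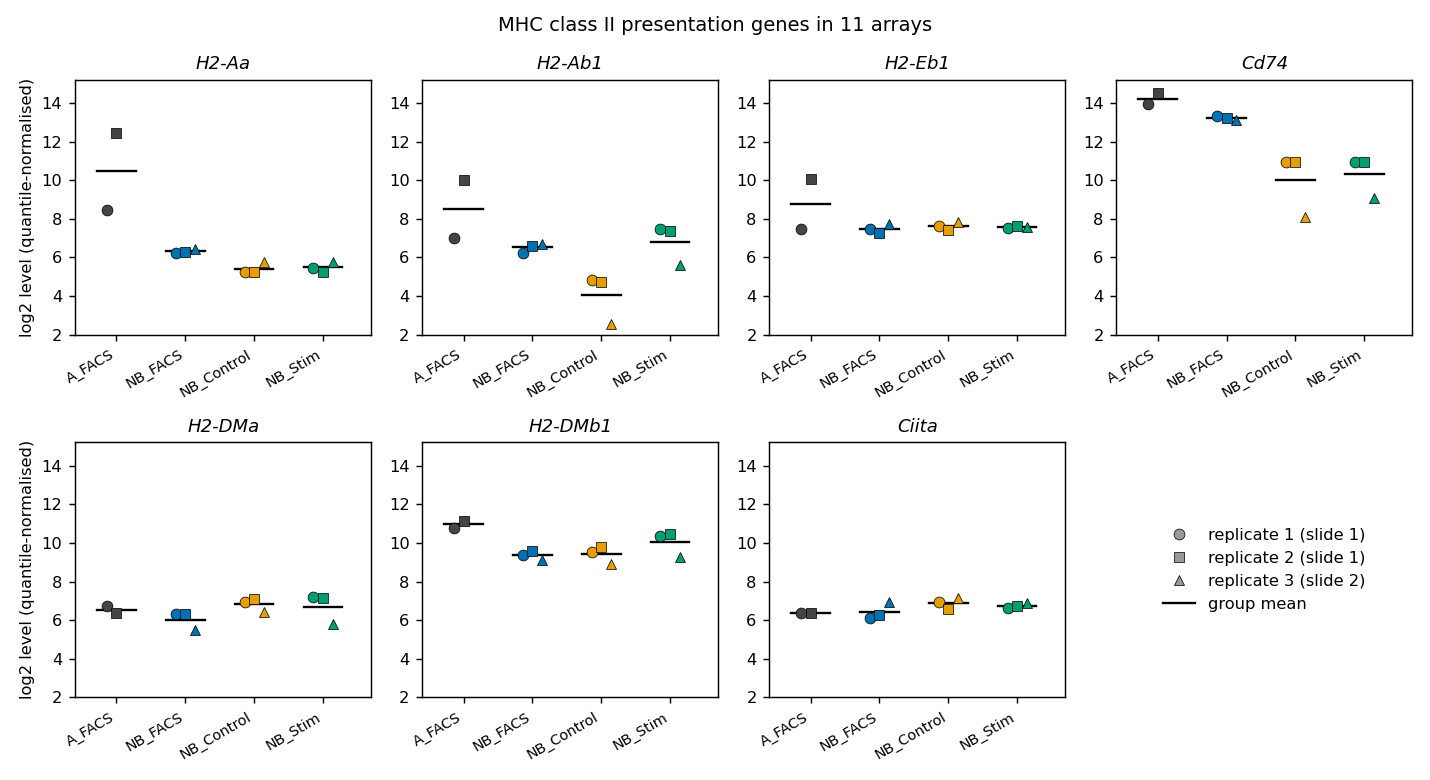
Levels of the 7 MHC class II presentation genes on the 11 arrays, with the log2 quantile-normalised level on the vertical axis, 1 point per array (circle, square and triangle for replicates 1, 2 and 3) and the group mean as a line. H2-Aa, H2-Ab1 and H2-Eb1 are spread over 2.59 to 4.01 log2 units between the 2 adult arrays, Cd74 is lower in both cultured groups than in both sorted groups, and H2-Ab1 is lowest in NB_Control.

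H2-Aa, the α chain of I-A, was higher in adult microglia than in each newborn group. It was 8.46 and 12.46 on the 2 A_FACS arrays, 6.24, 6.27 and 6.45 in NB_FACS, 5.25, 5.23 and 5.75 in NB_Control and 5.44, 5.27 and 5.79 in NB_Stim. Both adult arrays lay above all 9 newborn arrays, the 3 sorted newborn arrays lay above all 6 cultured ones, and the 2 cultured groups overlapped. The adult mean exceeded that of NB_FACS by 4.14 (SE 0.86, a 17.6-fold difference, adjusted p 0.00733), that of NB_Control by 5.05 (SE 0.86, adjusted p 0.00117) and that of NB_Stim by 4.96 (SE 0.86, adjusted p 0.00142). The first of these was not called by Tukey's adjusted test (adjusted p 0.110), nor when only the 2 groups were fitted (limma, adjusted p 0.0580). Tukey's test is named in the study's methods, which do not mention the further adjustment over all genes made here. Without adult replicate 2 the 3 differences were 2.14, 3.05 and 2.96, each still called by limma with the lone adult array assumed to vary like the other groups. The lower level in culture was smaller. NB_Control was 0.91 below NB_FACS (SE 0.77, adjusted p 0.430). Limma called that difference when only these 2 groups were fitted (adjusted p 0.0113) or when either adult array was left out. Cytokines left H2-Aa within 0.085 of the control mean, with a 95% interval of the difference from -1.63 to 1.80.

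H2-Ab1, the β chain that pairs with H2-Aa, had another order. Its levels were 6.98 and 9.99 in A_FACS, 6.25, 6.62 and 6.68 in NB_FACS, 4.81, 4.75 and 2.56 in NB_Control and 7.46, 7.37 and 5.61 in NB_Stim. NB_Control held the 3 lowest arrays of the 11, and its replicate 3 was not well above background. NB_Stim overlapped both sorted groups. NB_Control was 2.47 below NB_FACS (SE 0.84, unadjusted p 0.0150 and adjusted p 0.0503 by limma), just short of the threshold. With the replicate number as a block the same difference was called (adjusted p 0.0263), as it was after 75th percentile scaling (adjusted p 0.0325). NB_Stim was 2.77 above NB_Control (SE 0.84, a 6.84-fold difference, unadjusted p 0.00822), which did not pass over all genes (limma, adjusted p 0.127, and 0.0630 with the replicate block). The 3 same-numbered pairs gave 2.66, 2.62 and 3.05, all higher with cytokines, although the labels name no pairs. Replicates 1 and 2 were close, with a mean absolute log2 difference over all genes of 0.17 in NB_Control and 0.19 in NB_Stim. Each was 0.41 to 0.50 from replicate 3 of its group, so that pairs 1 and 2 may not be independent. After normexp background correction with an offset of 50 the difference was 1.13. Without NB_Control replicate 3 it was 2.04. The adult mean exceeded that of NB_Control by 4.44 (SE 0.94, adjusted p 0.00408 by limma, 0.0703 by Tukey's adjusted test). Without adult replicate 2 that difference was 2.94 and rested on 1 adult array. Against NB_FACS and NB_Stim the adult differences of 1.97 and 1.67 were not called (limma, adjusted p 0.168 and 0.182), and without adult replicate 2 they were 0.47 and 0.17.

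H2-Eb1, the β chain of I-E, was not called in any comparison, and its newborn groups overlapped. All 9 newborn arrays lay between 7.24 and 7.85. The adult arrays were 7.45 and 10.04, the first inside the newborn range and the second above it. The adult excess over NB_FACS of 1.26 (SE 0.57) was not called by limma (adjusted p 0.146), and without adult replicate 2 the difference was -0.038. With adult replicate 2 alone the difference was 2.55, a value that rests on 1 adult array and so has no adult spread of its own. The 3 newborn differences had 95% intervals that reached from -1.18 to 1.28 at the widest.

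Cd74, the invariant chain, separated sorted from cultured cells. It was 13.93 and 14.51 in A_FACS, 13.34, 13.24 and 13.10 in NB_FACS, 10.94, 10.92 and 8.12 in NB_Control and 10.92, 10.92 and 9.07 in NB_Stim. No cultured array reached a sorted one, the 2 cultured groups overlapped, and replicate 3 was the lowest array of both. NB_Control was lower than NB_FACS by 3.23 log2 units (difference -3.23, SE 0.74, a 9.39-fold difference, adjusted p 0.00804 by limma) and NB_Stim was lower by 2.92 (difference -2.92, SE 0.74, adjusted p 0.0132). Tukey's adjusted test called neither (adjusted p 0.117 and 0.160). Within slide 1 the 2 differences were -2.36 and -2.37, and on slide 2, with 1 array a group and no test, -4.98 and -4.02. The cytokines left Cd74 near the control level, with a difference of 0.31 and a 95% interval from -1.34 to 1.96. Without NB_Control replicate 3 that difference was -0.63. Adult microglia exceeded NB_Control by 4.23 and NB_Stim by 3.91 (limma, adjusted p 0.00264 and 0.00428), but the 0.99 above NB_FACS was not called (SE 0.82, adjusted p 0.439), except within slide 1 (0.93, adjusted p 0.0125) and with only the 2 groups in the fit (adjusted p 0.0414). In bulk RNA, fewer cells with a transcript and less transcript per cell cannot be told apart.

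The 2 chains of H2-DM differed from each other. H2-DMb1, the β chain, was 10.79 and 11.16 in A_FACS, 9.38, 9.59 and 9.11 in NB_FACS, 9.55, 9.78 and 8.89 in NB_Control and 10.35, 10.44 and 9.29 in NB_Stim. Both adult arrays lay above every newborn array, and the newborn groups overlapped. The adult mean exceeded NB_FACS by 1.61 (SE 0.37, adjusted p 0.0117) and NB_Control by 1.57 (SE 0.37, adjusted p 0.00716) in limma. Without adult replicate 2 these were 1.43 and 1.39 and not called (adjusted p 0.0790 and 0.0552), nor were they by Tukey's adjusted test (0.131 and 0.0876). The excess over NB_Stim of 0.95 was not called (limma, adjusted p 0.0648). It was called with the replicate block (0.70, adjusted p 0.0151), the slide as a block, within slide 1 and without NB_Control replicate 3. NB_Stim was 0.67 above NB_FACS (limma, adjusted p 0.159). That difference was called with the replicate block (adjusted p 0.0121), the slide as a block, within slide 1 and without NB_Stim replicate 3.

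H2-DMa, the α chain, ran from 5.48 to 7.19 over all 11 arrays, with no comparison called. Its levels were 6.71 and 6.39 in A_FACS, 6.31, 6.31 and 5.48 in NB_FACS, 6.94, 7.12 and 6.41 in NB_Control and 7.19, 7.14 and 5.78 in NB_Stim. The 3 NB_Control arrays lay above all NB_FACS arrays. That difference of 0.79 had an adjusted p of 0.167 in limma and of 0.00988 with the replicate block. NB_Stim was 0.67 above NB_FACS, with an adjusted p of 0.231 in limma and of 0.0195 with the replicate block. The 2 probes of the gene disagreed. From NB_FACS to NB_Control the difference was 1.38 for the probe matched to a predicted RefSeq transcript and 0.21 for the probe matched to a curated one.

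Ciita, the coactivator, showed no difference called by the fit over all arrays. All 11 arrays lay between 6.12 and 7.16, and the 6 differences between groups ran from -0.53 to 0.46. The A_FACS arrays were both at 6.36, inside the range of NB_FACS (6.12 to 6.94), while H2-Aa was above every newborn array there. The 95% interval of the adult difference from NB_FACS was -0.64 to 0.49. NB_Control was 0.46 above NB_FACS (adjusted p 0.168), which was called with the brightest probe (0.51, adjusted p 0.0264), the slide as a block (0.0344), within slide 1 (0.0205) and without NB_FACS replicate 3 (0.71, adjusted p 0.0166). NB_Stim was 0.31 above NB_FACS (adjusted p 0.333), called within slide 1 (0.0291) and without NB_FACS replicate 3 (0.0405). The gene value rests on 2 probes, and the 3 others were well above background on 2, 2 and 0 of the 11 arrays. The 2 probes disagreed in the direction of the adult difference from NB_FACS, with -0.39 for the probe shown above and 0.23 for the other. The direction of the adult difference from NB_FACS (-0.076) turned in 8 of its alternatives, up to 0.37 when the dim probes were kept.

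**Figure D2:**
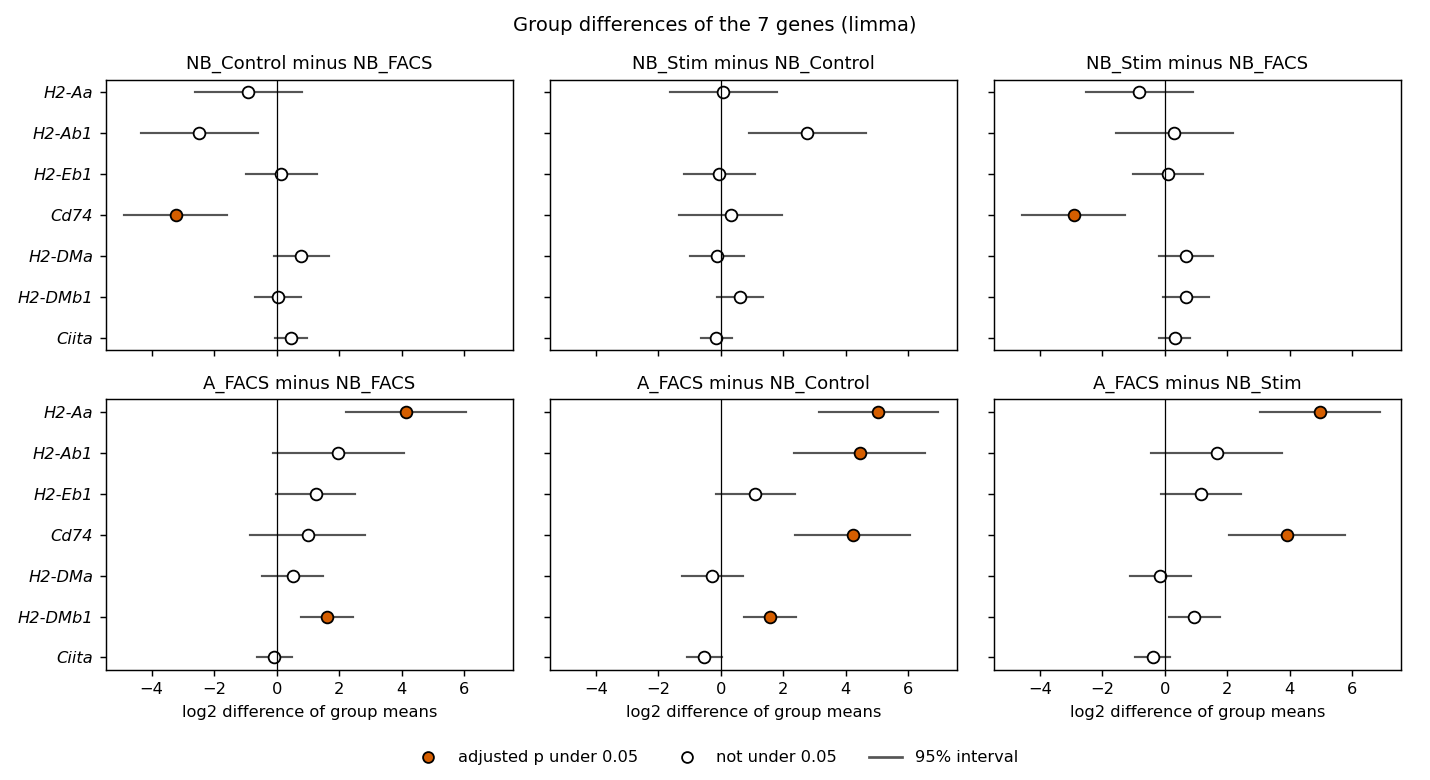
Log2 differences of group means (points) with 95% intervals (lines) for the 7 genes in the 6 comparisons, from limma. Filled points have an adjusted p under 0.05 over all genes. Cd74 is the only filled point between newborn groups, and no point is filled for NB_Stim minus NB_Control.

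Counted by comparison, Cd74 was the 1 of 7 genes called lower in NB_Control than in NB_FACS, where 13.9% of all genes were called lower and 29.7% in either direction. It was also the 1 of 7 called lower in NB_Stim than in NB_FACS (15.1% of all genes lower, 31.1% in either direction). With the replicate block each of these counts was 3 of 7, H2-Ab1 lower and H2-DMa higher joining the first, and H2-DMa and H2-DMb1 higher joining the second, while the block called 37.4% and 40.0% of all genes in either direction. Between NB_Stim and NB_Control limma called 0 of 7 genes, Tukey's adjusted test also 0 and an unadjusted p under 0.05 only H2-Ab1, while limma called 3.4% of all genes. Adult microglia were higher than NB_FACS in 2 of 7 (H2-Aa and H2-DMb1), against 9.75% of all genes called higher and 22.7% in either direction. They were higher than NB_Control in 4 of 7 (those 2, H2-Ab1 and Cd74), against 17.7% and 40.8%, and higher than NB_Stim in 2 of 7 (H2-Aa and Cd74), against 17.5% and 40.2%. No member was called lower in adult cells by this fit. In alternatives, H2-DMa was called lower than in NB_Control with the replicate block (difference -0.59, adjusted p 0.0456), with the slide as a block (0.0324) and within slide 1 (0.0281), and lower than in NB_Stim within slide 1 (0.0106). Ciita was called lower than in NB_Control without NB_FACS replicate 3 (adjusted p 0.0415). The median difference of the 7 genes was 0.043 for NB_Control minus NB_FACS, 0.085 for NB_Stim minus NB_Control and 0.30 for NB_Stim minus NB_FACS, where the medians of all genes were 0.087, -0.00074 and 0.11. For A_FACS minus NB_FACS, NB_Control and NB_Stim it was 1.26, 1.57 and 1.16, where those of all genes were -0.0087, -0.11 and -0.10. The adult comparisons share the A_FACS arrays, and Tukey's adjusted test kept only H2-Aa against NB_Control and NB_Stim.

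**Figure D3:**
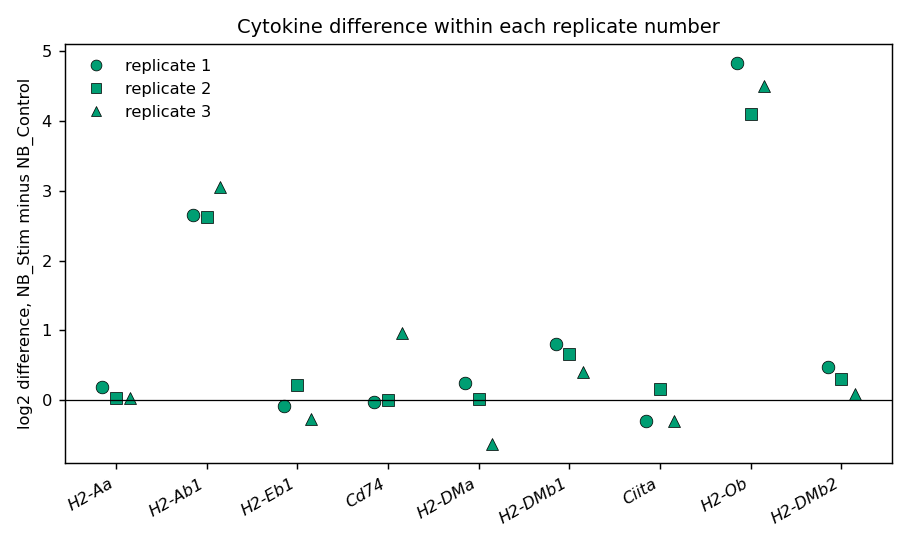
Log2 difference between NB_Stim and NB_Control within each replicate number for the 7 genes and for H2-Ob and H2-DMb2, with 1 point per pair. H2-Ab1 (2.62 to 3.05) and H2-Ob (4.10 to 4.83) lie far above 0 in all 3 pairs, while H2-Aa stays between 0.035 and 0.18.

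The further class II genes included 1 of 3 tested that was called with cytokines, where 3.4% of all genes were. H2-Ob, the β chain of H2-DO and best known from B cells and some dendritic cells, was 3.18, 3.78 and 2.62 in NB_Control and 8.01, 7.88 and 7.13 in NB_Stim. The groups were far apart, and the sorted arrays lay at 6.68, 7.14 and 6.77 in NB_FACS and at 9.07 and 9.46 in A_FACS. H2-Ob was 4.48 higher in NB_Stim than in NB_Control (SE 0.32, adjusted p 0.000126 by limma, 0.00815 by Tukey's adjusted test), and its 2 probes gave 4.80 and 4.16. It fell by 3.67 from NB_FACS to NB_Control (adjusted p 2.65e-05). The second probe was not well above background on any NB_Control array and the first on 2 of 3, so that the size of these differences depends on the dim end of the scale, and after normexp correction the cytokine difference was 1.87 (adjusted p 0.000124). Adult cells exceeded NB_FACS by 2.41 (adjusted p 0.00128) and NB_Stim by 1.59 (adjusted p 0.00583). Of the B cell receptor chains, Cd79b also fell in culture (-4.87, adjusted p 7.76e-06 by limma) but was not called between NB_Stim and NB_Control. Cd79a stayed between 6.30 and 6.94 and Ms4a1 between 5.20 and 6.19 on all arrays.

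H2-DMb2, a second H2-DM β chain, was higher in adult cells, at similar levels on both adult arrays. It was 9.21 and 9.55 in A_FACS and between 8.01 and 8.58 on the 9 newborn arrays. The adult excess was 1.23 over NB_FACS (SE 0.17, adjusted p 0.000912 by limma), and its probe shared no run of 12 bases with that of H2-DMb1. H2-Oa, the α chain of H2-DO, was 6.07 and 6.39 in A_FACS and 4.75 to 5.88 on the newborn arrays, and was not called in any comparison. The probes of H2-Eb2 did not pass the filter, and no probe was matched to H2-Ea.

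**Figure D4:**
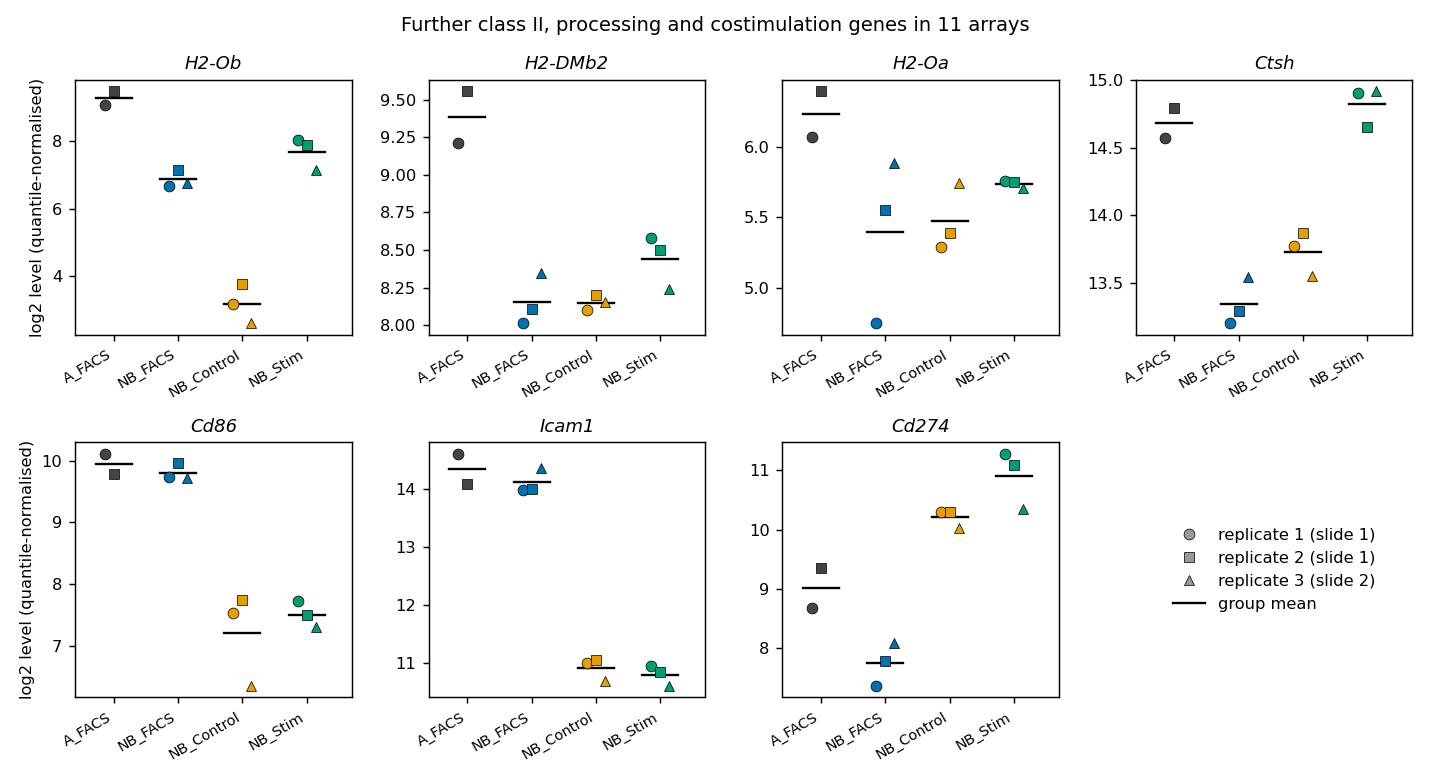
Levels of 3 further class II genes, the protease gene Ctsh and the surface genes Cd86, Icam1 and Cd274 on the 11 arrays (log2 quantile-normalised level, a separate scale in each panel, 1 point per array, line at the group mean). H2-Ob and Ctsh are higher in NB_Stim than in NB_Control, while Cd86 and Icam1 are lower in both cultured groups than in both sorted groups.

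Of the factors that hold Ciita at class II promoters, 6 of the 7 listed were tested. NB_Control was lower than NB_FACS in 2 of them, against 13.9% of all genes. They were Nfyc (-0.81, adjusted p 0.00682) and Nfyb (-0.70, adjusted p 0.00479), both subunits of the Y box factor NF-Y. NB_Stim and NB_Control differed in 0 of the 6, where 3.4% of all genes did. Rfxap, a subunit of the X box factor RFX, was higher in A_FACS than in NB_FACS (1.80, adjusted p 0.0213), NB_Control (2.73) and NB_Stim (2.47), with 10.58 on adult replicate 1 and 11.99 on replicate 2. Rfx5, which binds the X box, was 3.16 to 4.61 on all arrays. In the interferon gamma pathway 8 of 12 listed genes were tested. Jak2, a receptor kinase, was lower in NB_Control than in NB_FACS (-1.73, adjusted p 7.46e-05), and Irf2, a repressor of interferon target genes, was higher (0.94, adjusted p 0.0167). Cytokines changed 0 of the 8 by limma's test, where 3.4% of all genes were called. Irf1, which drives the interferon-inducible Ciita promoter, was higher in A_FACS than in NB_FACS (1.12, adjusted p 0.00524), at 8.35 and 8.87 against 7.39, 7.57 and 7.51. In this comparison 3 of the 8 were called higher and 1 lower, against 9.75% and 12.9% of all genes. Irf2 was higher too (1.27, adjusted p 0.00975) and Jak2 lower (-0.63, adjusted p 0.0452). The Jak2 call was lost in 7 of 11 fits without 1 array, that of Irf2 without adult replicate 1 (1.07, adjusted p 0.0889) and that of Rfxap without adult replicate 2 (adjusted p 0.175) or NB_FACS replicate 3 (adjusted p 0.0611). Irf2 between NB_Control and NB_FACS was not called without NB_Control replicate 1 or 2 (adjusted p 0.0632 and 0.0650). The probe of Ifng itself did not pass the filter.

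Of the endosomal proteases and related genes that process antigen and Cd74, all 9 listed were tested. NB_Control was lower than NB_FACS in 1 of them, against 13.9% of all genes. It was Lgmn, an asparagine-specific protease that starts the cleavage of Cd74 and antigens (-1.28, adjusted p 0.000469). With cytokines 2 of 9 were higher than in NB_Control, against 1.4% of all genes. They were Ctsh (1.09, adjusted p 0.00423) and Ctss, which trims Cd74 to its last fragment (0.60, adjusted p 0.0451). The Ctss call was lost in each of the 11 fits without 1 array (adjusted p 0.0532 to 0.175), and with the brightest probe its difference was 0.29. Ctss was 14.89, 14.88 and 15.10 in NB_Control and 15.44, 15.45 and 15.78 in NB_Stim, without overlap. Ctsh was 13.77, 13.87 and 13.55 against 14.90, 14.65 and 14.92, and the sorted adult arrays (14.57 and 14.79) lay near NB_Stim while the sorted newborn arrays (13.20, 13.29 and 13.55) lay near NB_Control. Adult cells were higher than NB_FACS in Ctsh (1.33) and Ctss (0.81) and lower in Ifi30, a thiol reductase that unfolds antigens (-0.90, adjusted p 0.0358). The Ifi30 call was kept in 5 of the 11 fits without 1 array, and without either adult array or any NB_FACS array its adjusted p was 0.0607 to 0.200. With the brightest probe the adult difference of Ctss was 0.29 and not called. Marchf1, a ubiquitin ligase that takes class II from the surface, was higher in A_FACS than in NB_FACS (1.40, adjusted p 0.00820), at 8.49 and 8.31 against 7.01, 6.83 and 7.17, but was not called without adult replicate 1 (adjusted p 0.0645).

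Of the surface genes that act beside class II in contact with T cells, 4 of 9 differed between NB_Control and NB_FACS, where 29.7% of all genes did, and 5 were not called. NB_Control was lower in 3 of them, the adhesion receptor Icam1 (-3.20, adjusted p 2.67e-06), the CD28 ligand Cd86 (-2.60, adjusted p 0.000211) and the ICOS ligand Icosl (-1.85, adjusted p 6.18e-06). The inhibitory ligand Cd274 was higher (2.46, adjusted p 0.000152). NB_Stim differed from NB_FACS in the same 4 genes and directions, where 31.1% of all genes were called. Between NB_Stim and NB_Control 0 of the 9 were called by limma, where 3.4% of all genes were. Cd274 was 10.29, 10.29 and 10.03 without and 11.27, 11.09 and 10.35 with cytokines. Against NB_FACS, adult cells were higher in Cd274 (1.26, adjusted p 0.0180) and Icosl (0.65, adjusted p 0.00902). Cd274 was not called without adult replicate 2 (0.93, adjusted p 0.140) or NB_FACS replicate 1 (adjusted p 0.0514), nor Icosl without adult replicate 1 (adjusted p 0.0568).

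The spread between the adult arrays bears on each adult value of a member. Replicate 2 exceeded replicate 1 by 4.01 for H2-Aa (16.1-fold), 3.00 for H2-Ab1, 2.59 for H2-Eb1 and 0.58 for Cd74, against 0.37 for H2-DMb1, -0.33 for H2-DMa and 0.01 for Ciita. The 3 chains of the surface molecules differed most between the adult arrays, and Ciita least. Markers of other cells differed between the 2 arrays too. They are counted below past 1 log2 unit, a share not given here for all genes, of which 1% were past 2 log2 units. Of 8 border macrophage genes 5 were higher by more than 1 log2 unit in replicate 2, among them Ms4a7 (2.74 and 5.35), Pf4 (4.96 and 7.47) and F13a1 (3.60 and 6.06), and the log2 of their summed level was 8.73 and 9.89. Ms4a7 and F13a1 were dim on replicate 1, whose lowest signal well above background was 2.94, and F13a1 was well above background on 1 of the 2 arrays. The size of these differences therefore depends on the dim end of the scale. The summed level of the 8 genes was higher in NB_FACS (13.5 to 13.8) than in either adult array. Of 3 monocyte genes 2 were higher by more than 1, among them Ly6c2 (10.53 and 11.67), with summed levels of 11.4 and 12.6 against 8.95 to 9.39 in NB_FACS. Of 7 dendritic cell genes 1 was, Itgax (6.75 and 8.30), while Flt3 was 4.17 and 4.07 and Xcr1 5.81 and 5.33. None of the 9 microglia genes, of the 5 B cell genes or of the 9 proteases was, and 1 of 6 T and NK cell genes was (Klrb1c, 3.85 and 5.66). The part of these cells in the class II difference was not tested.

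**Figure D5:**
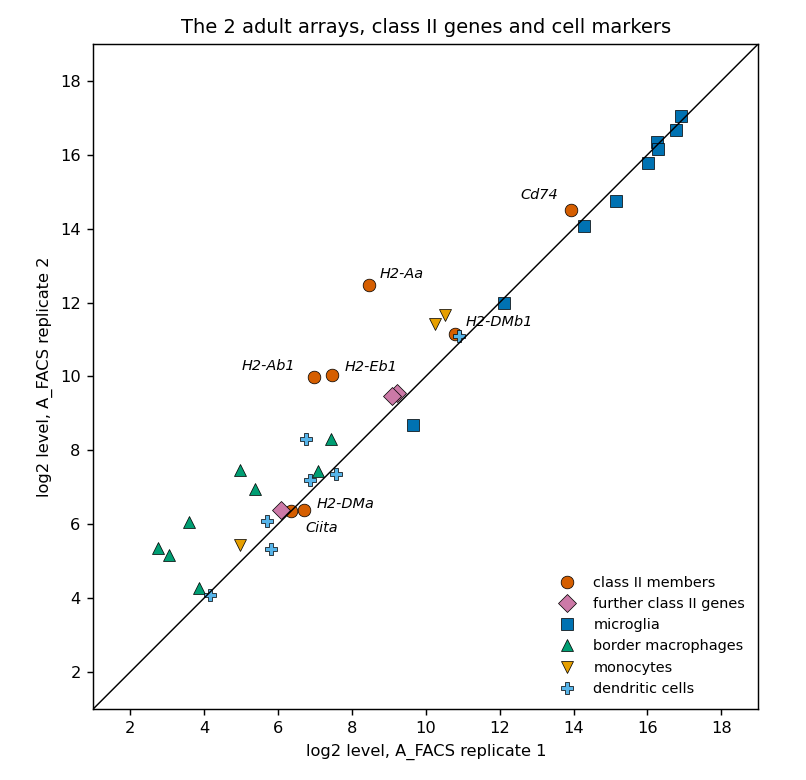
Log2 levels on adult replicate 1 (horizontal) and replicate 2 (vertical) for the 7 members, further class II genes and markers of 4 cell types, with the line of equal level. H2-Aa, H2-Ab1 and H2-Eb1 lie 2.59 to 4.01 above the line, while Ciita, H2-DMa and H2-DMb1 lie near it. The microglia markers lie within 1 log2 unit of the line, with Csf1r farthest from it and below it (9.66 and 8.68).

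Markers of other cells also moved with culture. The summed level of the 8 border macrophage genes was 13.5 to 13.8 in NB_FACS, 15.5 to 16.4 in NB_Control and from 14.25 up in NB_Stim, where all 3 arrays lay between those 2 groups. Ms4a7 and Pf4 were higher in NB_Control than in NB_FACS (6.66 and 4.71) while Lyve1 and Cbr2 were lower. Pf4 was the brightest of the 8 in NB_Control and NB_Stim (means 15.13 and 14.27), so that the sum follows it there. Between NB_Stim and NB_FACS 2 of the 8 were called higher and 4 lower, against 15.9% and 15.1% of all genes. The median difference of the 8 was -3.09. That of the 7 dendritic cell genes was 10.42 to 10.46 in NB_FACS, 8.47 to 8.66 in NB_Control and 8.54 to 8.78 in NB_Stim. In NB_Control 3 of the 7 were lower than in NB_FACS, against 13.9% of all genes. They were Siglech, which microglia also express (-5.58, adjusted p 1.59e-07 by limma), Batf3 (-1.66, adjusted p 0.00357) and Zbtb46 (-1.14, adjusted p 0.000175, but 0.15 with the brightest probe). Xcr1, Clec9a, Flt3 and Itgax were not called, with differences of 0.17, 0.31, -0.22 and -0.52. Siglech was the brightest of the 7 in NB_FACS, so that the sum follows it more than the rest. The part of such cells in the Cd74 difference was not tested.

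Compared with each other over the 4 group means, each centred on its own mean, the members fell into no common pattern. The mean absolute distance was smallest between Ciita and H2-DMa (0.16) and between H2-DMb1 and H2-Eb1 (0.26). It was 1.22 between the 2 chains of I-A and 0.95 between H2-Aa and Cd74, and largest between H2-DMa and Cd74 (2.02). These distances describe 4 points per gene, 1 of which rests on 2 arrays that differed.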

How the data were processed

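The deposited scanner files hold a background-subtracted signal intensity for 62976 spots on each array, made by the authors with Agilent Feature Extraction (version 11 in the submitters' processing notes), and other columns per the file headers, which are flags for outlier spots, saturation and signals well above background. A deposited table of the series held the same intensity values, with 0 of its 62927 entries differing beyond a relative tolerance of 1e-05. The study's methods name quantile normalisation and Tukey's test.

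Here log2 intensities were averaged over the spots of a probe without control or outlier spots, and quantile normalised over all probes in limma 3.58.1 (R 4.3.3, data.table, version 1.17.8). Probes were kept where all arrays of 1 or more groups were well above background (44749 of 60037), named by RefSeq accession (RefSeq names of GRCm38.p6, 60.4% of probes matched) and averaged to 19572 genes. A mean per group was fitted over 11 arrays (7 residual and 2.69 prior degrees of freedom). Benjamini-Hochberg adjustment was made within a comparison, with 0.05 as the threshold for a call. For Tukey's adjusted test it was applied over all genes to Tukey's p, which already covers all pairs of groups. No spot was saturated, and the number of arrays limits the precision. The code was tested on simulated data. Figures were drawn with matplotlib 3.10.9.

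Promoters were taken from a RefSeq table of the same build, and probes were not placed on the genome. Samples were grouped by their titles. Same-numbered newborn arrays deviated together from their group means (r 0.112 to 0.489 in all 9 pairs), by which the replicate number was taken to pair them, although arrays 1 and 2 with different numbers gave r of 0.185 to 0.364 and number 3 is slide 2. Members and lists were chosen with earlier results of these data known. Genes of the lists were named where called, at most 3 for a comparison and list, or where their role gives background. A few genes of the marker and pathway lists are not reported here by name.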

Additional observations from a re-analysis of the deposited data

How the results depend on the processing

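The count of members called moved with the test and the block. With Tukey's adjusted test it was 0 for NB_Control against NB_FACS, 0 for NB_Stim against NB_FACS, 0 for A_FACS against NB_FACS, 1 against NB_Control and 1 against NB_Stim. For NB_Control against NB_FACS it was 2 with 75th percentile scaling or the brightest probe, 3 with the replicate block, within slide 1 or with only the groups compared, and 4 with the slide as a block. For NB_Stim against NB_FACS it was 3 with either block, 4 within slide 1 and 2 with only the groups compared. Within slide 1 it was 4 for A_FACS against NB_Stim and 3 against NB_FACS. Leaving out 1 array gave 1 to 3, 1 to 3, 1 to 4 (A_FACS against NB_FACS), 3 to 5 (against NB_Control) and 2 to 4 (against NB_Stim). The high counts came without NB_Stim replicate 3 or either adult array (3 for NB_Control against NB_FACS), without NB_Stim replicate 3 (3 for NB_Stim against NB_FACS; 2 without NB_FACS replicate 3 or either adult array), and without adult replicate 1 (4 against NB_FACS and NB_Stim), and the count of 1 against NB_FACS came without adult replicate 2. NB_Stim against NB_Control stayed at 0 in all of these settings. A fit without 1 adult array takes the adult spread from the other groups, so its adult counts do not measure that spread. Beyond the calls given with the results, the replicate block changed no member's call.

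Among members, directions turned only in differences that limma had not called. Averaging cultured replicates 1 and 2 gave H2-DMb1 -0.086 (NB_Control minus NB_FACS), H2-Ab1 -0.00059 (NB_Stim minus NB_FACS) and H2-DMa 0.079 (A_FACS minus NB_Stim). For NB_Stim minus NB_Control, slide 1 alone gave H2-Eb1 0.066, H2-DMa 0.13 and Cd74 -0.010, and the brightest probe gave H2-DMa 0.053. Ciita in A_FACS minus NB_FACS was 0.019 (75th percentile), 0.027 (normexp), 0.37 (dim probes kept), 0.23 (brightest probe), 0.074 (either block) and 0.18 (slide 1), and with dim probes kept 0.021 and 0.12 against NB_Control and NB_Stim. The brightest probe turned Zbtb46 to 0.15, 0.036, -0.26 and -0.15 (NB_Control and NB_Stim minus NB_FACS, A_FACS minus NB_Control and NB_Stim) and Jak2 to -0.061 and -0.39 (A_FACS minus NB_Control and NB_Stim), and dim probes turned Cd3e to -0.083 and 0.030 (NB_Control minus NB_FACS, A_FACS minus NB_Control). Leaving out 1 array gave H2-DMb1 -0.14 to 0.30 (NB_Control minus NB_FACS), for NB_Stim minus NB_Control H2-Aa -0.060 to 0.25, H2-Eb1 -0.15 to 0.063, H2-DMa -0.36 to 0.34 and Cd74 -0.63 to 0.93, for NB_Stim minus NB_FACS H2-Ab1 -0.024 to 0.90 and H2-Eb1 -0.025 to 0.23, and for adult cells H2-Eb1 -0.038 to 2.55, -0.18 to 2.40 and -0.14 to 2.45, H2-DMa -0.62 to 0.091 and Ciita -0.24 to 0.18. Slide 2 alone, with 1 array a group, gave H2-DMb1 -0.22 (NB_Control minus NB_FACS). For NB_Stim minus NB_FACS it gave H2-Ab1 -1.06, H2-Eb1 -0.17 and Ciita -0.069. The cause was not tested. Of 4476 recomputed values 4025 were counted as unchanged. Outside slide 2 that meant the same direction and side of the threshold. On slide 2, without a test, it meant lying within 1 group SD of the main value, whatever the direction of an uncalled difference. Dim signals limit H2-Ab1 and H2-Ob in NB_Control, and 2 differing arrays limit every adult value.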

Other observations

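Outside the class II pathway, the genes whose 4 centred group means lay closest to those of a member are given as a description over 4 points. For Cd74 they were Amz1 (mean absolute distance 0.10) and Ier2 (0.11), for H2-Aa Slco1a4 (0.026) and Stk35os1 (0.29), and for H2-Ab1 F11r (0.092) and Mlxipl (0.11). Slco1a4 was dim in the newborn groups, with means of 2.25 in NB_FACS, 1.29 in NB_Control and 1.45 in NB_Stim. The lowest signal well above background was 1.51 to 3.14 on those arrays. F11r, a junctional adhesion molecule, was 13.48 in NB_FACS, 10.93 in NB_Control and 13.49 in NB_Stim on average. For H2-Eb1 they were Slc7a7 (0.030) and Sap25 (0.035), for H2-DMb1 Selplg (0.056) and Msrb2 (0.073), for H2-DMa Zfp983 (0.015) and Pagr1a (0.020), and for Ciita Gm31562 (0.0054) and Tlcd3a (0.0068). The profile averaged over H2-Aa, H2-Ab1, H2-Eb1 and Cd74 was nearest to Btbd35f16 (0.039), 6030466F02Rik (0.071), Vmn1r183 (0.085), Scpep1os (0.10) and Rhpn2 (0.11). Btbd35f16, Vmn1r183 and Rhpn2 were dim in NB_Control (means 2.09, 1.90 and 1.99).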
